A study of Mus musculus with 2 samples.

Results

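The genes described here are 10 AP-1 and other immediate early genes. Immediate early genes give the transcripts that cells make first when a growth factor or a stress reaches them. The name is used here for all 10, although Jund is found at steadier levels in resting cells and Fosl1 builds up under sustained signalling. The 10 comprise the Fos family (Fos, Fosb, Fosl1 and Fosl2), the Jun family (Jun, Junb and Jund), and Egr1, Ier2 and Ier3. They were taken by gene symbol from a deposited table of 45777 genes, and each symbol matched 1 row. Poly(A) RNA had been sequenced from cultures of YTN16, a mouse gastric cancer line. One library came from YTN16 cells with a short hairpin RNA (shRNA) against Gas6 (shGas6, genotype given as Gas6 knockdown), and the other from YTN16 cells with a control hairpin (shControl, genotype given as WT). GAS6 is a secreted ligand of the receptor tyrosine kinase AXL, and the knockdown was made to study how signalling through this pair bears on the response to immunotherapy. Each group has 1 library, so the spread between cultures is unknown and no test between the conditions could be made. The labels do not say how many hairpins or clones were used.

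Fos and Jun proteins join in pairs to form AP-1, a transcription factor that binds the letters TGACTCA in DNA. Jun proteins can pair with each other or with a Fos protein, whereas Fos proteins need a Jun partner. Transcription of many immediate early genes is started by serum response factor with its ternary complex partners, which are switched on by the ERK branch of MAP kinase signalling. Other inputs are the stress-activated JNK and p38 kinases, which act on Jun and the ATF factors. Their mRNAs and proteins are typically short-lived, so levels in a culture follow its recent history, including serum. Both cultures were kept in medium with fetal bovine serum, per the labels' protocols, but the sources used here give neither the time since feeding nor the cell density.

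All 10 genes had more transcript in the shGas6 library than in the shControl library. Of the 10, 6 were at least 2-fold higher (Jun, Egr1, Fos, Fosl1, Ier2 and Junb), and for each of these 6 the whole counting interval lay above 2-fold. None was at least 2-fold lower. The other 4 (Jund, Fosb, Ier3 and Fosl2) were between 1.55-fold and 1.80-fold higher. A gene counted as measured at 1 CPM (the TMM-scaled count relative to library size) or more in at least 1 library, which held for 13367 genes and all 10 members. The 2-fold mark was passed upwards in shGas6 by 8.66% of these genes and downwards by 6.21%, and 49.1% of them had a ratio above 0. The median log2 ratio, shGas6 over shControl, was 1.34 over the 10 genes and -0.01 over all measured genes. Since the 10 genes were proposed with results of these libraries known, this contrast is a description of them and carries no test. In bulk RNA a difference in the share of cells with a transcript and a difference in its level per cell cannot be told apart.

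The libraries held 51807140 counts in shGas6 and 50756676 in shControl. Gas6 was at 14.1 CPM in shGas6 against 48.8 CPM in shControl, 29.0% of the control level. Intervals in brackets here and below are exact (Clopper-Pearson) 95% intervals for counting error only, and for Gas6 the interval was 26.6% to 31.5%. Of 6 epithelial markers, Epcam was not measured, at 0.503 CPM in shGas6 and 0.629 CPM in shControl. The other 5 all had a higher level in shGas6, with a median log2 ratio of 0.97, and the list summed to 6867 CPM in shGas6 and 4439 CPM in shControl. The keratin gene Krt7 was at 21.2 CPM in shGas6 and 2.28 CPM in shControl, 9.28-fold higher (7.66 to 11.3), and Krt18 was 2.40-fold higher (2.36 to 2.43). Cdh1, which encodes E-cadherin, was 1.95-fold higher (1.89 to 2.02), Krt8 1.47-fold higher (1.46 to 1.48) and Krt19 1.41-fold higher (1.40 to 1.42). The part of this difference in epithelial markers in the results for the immediate early genes was not tested. The 8 leukocyte markers summed to 0.290 CPM in shGas6 and 0.767 CPM in shControl, with Tyrobp and Adgre1 at 0 counts in both. The 7 fibroblast markers summed to 2.65 CPM in shGas6 and 1.95 CPM in shControl, with Col1a2 and Lum at 0 counts in both. The 5 endothelial markers summed to 4.47 CPM in shGas6 and 13.9 CPM in shControl, most of it Cdh5, with Kdr and Tek at 0 counts in both. The 3 marker sums for other cell types were therefore small beside the epithelial markers in both libraries.

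Stretches of DNA around annotated start sites are shown for Jun and Fos, which had the largest folds of their families. Fosb and Fosl2, which had the smallest folds of the Fos family, are shown because they shared 1 motif. The sequences are from RefSeq on build GRCm38.p6, as windows of 250 bases before to 50 bases after the transcription start, and 7 of the 10 members matched a window (Jun, Junb, Jund, Fos, Fosb, Fosl2 and Ier3). The Jun window is chr4:95052173-95052472 on the minus strand and the Fos window is chr12:85473640-85473939 on the plus strand. The Fosb and Fosl2 excerpts of 60 bases are chr7:19310061-19310120 on the minus strand and chr5:32136368-32136427 on the plus strand. Each is written 5′ to 3′ on the strand of the gene, and capitals mark the matches found.
Jun: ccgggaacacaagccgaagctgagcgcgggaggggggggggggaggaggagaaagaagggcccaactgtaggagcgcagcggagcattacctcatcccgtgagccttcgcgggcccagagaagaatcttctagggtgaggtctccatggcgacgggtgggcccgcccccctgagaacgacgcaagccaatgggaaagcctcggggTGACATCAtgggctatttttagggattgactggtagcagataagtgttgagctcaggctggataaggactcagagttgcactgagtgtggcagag
Fos: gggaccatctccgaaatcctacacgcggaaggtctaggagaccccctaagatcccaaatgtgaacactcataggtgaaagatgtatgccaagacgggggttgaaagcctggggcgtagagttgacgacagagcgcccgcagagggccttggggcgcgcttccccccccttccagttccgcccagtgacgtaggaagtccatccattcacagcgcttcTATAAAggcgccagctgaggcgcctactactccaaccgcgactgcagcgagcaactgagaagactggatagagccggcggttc
Fosb: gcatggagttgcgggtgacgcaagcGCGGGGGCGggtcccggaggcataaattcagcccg
Fosl2: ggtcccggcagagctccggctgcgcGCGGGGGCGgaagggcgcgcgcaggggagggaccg

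The capitals in Jun are TGACATCA, a variant AP-1 site long known from this promoter, which began 45 bases before the start. Those in Fos are a TATAAA box, 33 bases before the start. In Fosb and Fosl2 the capitals are GCGGGGGCG, an EGR site, which began 50 and 79 bases before the start used for each window. For Fosb that start lies inside the gene as positioned below, whose 5′ end is at 19310118. By that position the Fosb motif lies within the gene and not before it. Junb also held TATAAA, at its start site. The search covered both strands for TGACTCA, TGACATCA, TGACGTCA (the cAMP response element), the CArG box of serum response factor, GCGGGGGCG and GCGTGGGCG (EGR), CCGGAAG (ETS) and TATAAA. None of the motifs searched overlapped another in these windows. Across 32851 RefSeq promoter windows, 3.62% held TGACATCA, 2.91% held GCGGGGGCG and 13.6% held TATAAA. The patterns searched for AP-1 (TGACTCA), cAMP response (TGACGTCA), CArG and ETS, present in 5.20%, 1.79%, 1.63% and 8.86% of all windows, were in none of the 7 member windows. That says only that these letters are not within these 300 bases. Partial or other variant forms of these sites were not searched. A match is a description of the letters and not evidence of binding.

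**Figure D1:**
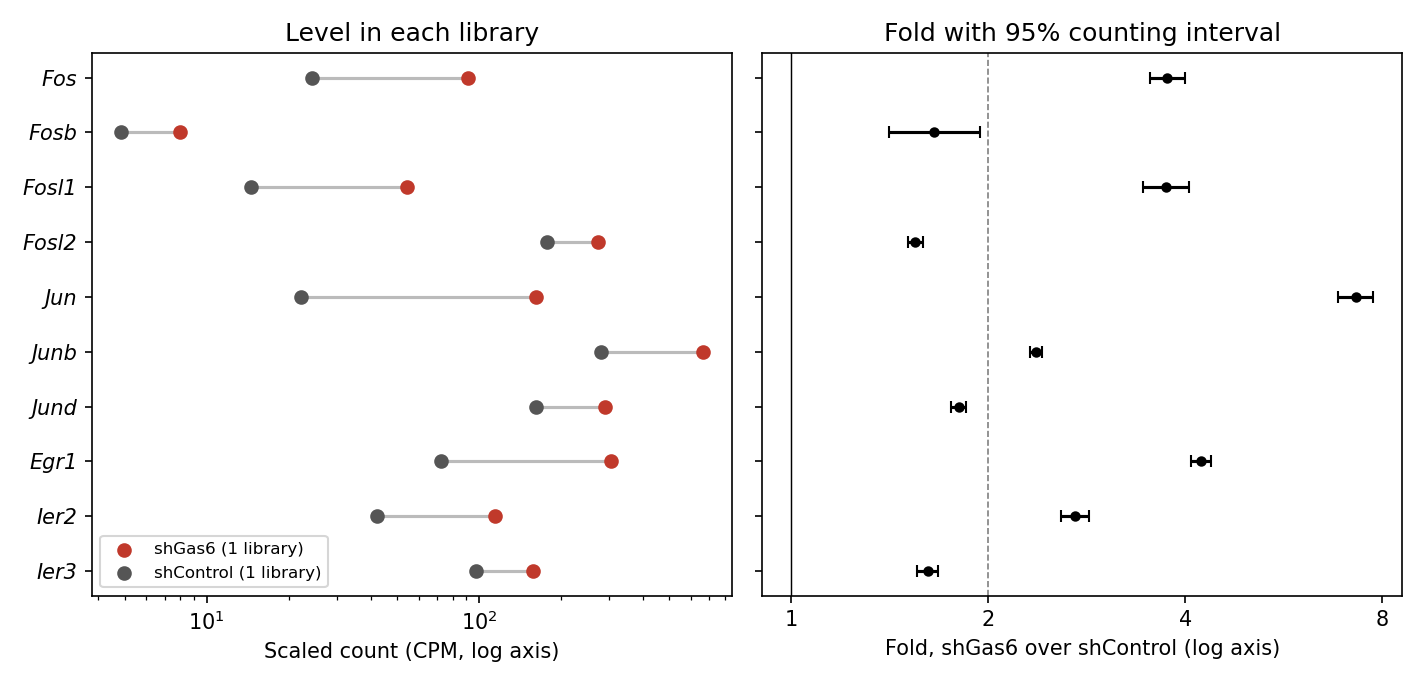
Left, scaled counts (CPM, log axis) of the 10 immediate early genes, with 1 red point for the shGas6 library and 1 grey point for the shControl library. Right, the fold of shGas6 over shControl (log axis) with its 95% counting interval; the dashed line marks 2-fold, and 6 genes lie beyond it, Jun farthest at 7.28-fold.

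Within the Jun family the difference was largest for Jun itself. Jun, the family's founding member and a target of JNK, is a gene of 1 exon on chromosome 4 (NCBI gene 16476, 95049036 to 95052222, minus strand). It had 8387 counts in shGas6 against 1133 in shControl, or 162 CPM against 22.3 CPM. Its fold was 7.28 (6.84 to 7.75), the highest of the 10 genes, and 216 of the 13367 measured genes (1.62%) had a ratio at least as high. The antisense gene Junos overlaps Jun on the other strand and was low in both libraries, at 1.04 CPM in shGas6 and 0.610 CPM in shControl. The sources used here do not say whether counting used strand, so reads of overlapping genes cannot be told apart.

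Junb, which is often induced together with Fos and can oppose Jun on some promoters, was the most abundant of the 10 in both libraries. This gene of 1 exon on chromosome 8 (NCBI gene 16477, 84976909 to 84978748, minus strand) had 34473 counts in shGas6 and 14328 in shControl. That corresponds to 667 CPM in shGas6 and 282 CPM in shControl, a fold of 2.37 (2.32 to 2.41). Its overlapping neighbour on the other strand, Prdx2, a peroxiredoxin, differed in the opposite direction, at 221 CPM in shGas6 and 324 CPM in shControl. Jund, the Jun protein found at steadier levels in resting cells, differed least of the 3. It lies on chromosome 8 as well (NCBI gene 16478, 70697739 to 70700616, plus strand, 1 exon) and had 15070 counts in shGas6 against 8224 in shControl. Jund stood at 291 CPM in shGas6 and 162 CPM in shControl, a fold of 1.80 (1.75 to 1.85), below the 2-fold mark. An antisense gene of the GENCODE annotation, Gm11175, overlaps Jund and was not analysed here.

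The Fos family split into a higher and a lower pair by fold. Fos, the classic serum-induced gene, with 4 exons on chromosome 12 (NCBI gene 14281, 85473890 to 85477274, plus strand), had 4734 counts in shGas6 and 1239 in shControl. It was at 91.5 CPM in shGas6 and 24.4 CPM in shControl, a fold of 3.76 (3.53 to 4.0). Fosl1 encodes FRA-1, which builds up when ERK signalling is sustained and is linked to invasion in epithelial tumours. Fosl1 (NCBI gene 14283, chromosome 19, 5447698 to 5455938, plus strand, 4 exons) had 2808 counts in shGas6 and 739 in shControl. Its level was 54.3 CPM in shGas6 and 14.5 CPM in shControl, a fold of 3.74 (3.44 to 4.06), so the intervals of Fos and Fosl1 overlapped. Ccdc85b, a gene that overlaps Fosl1 on the other strand, was at 25.7 CPM in shGas6 and 23.4 CPM in shControl.

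Fosl2 and Fosb had the smaller folds of the family, at opposite ends of its abundance. Fosl2, which encodes FRA-2 (NCBI gene 14284, chromosome 5, 32136472 to 32157840, plus strand, 4 exons), had 14221 counts in shGas6 against 9037 in shControl. It was at 275 CPM in shGas6 and 178 CPM in shControl, a fold of 1.55 (1.51 to 1.59), the smallest of the 10. The 50 measured genes around Fosl2 had a median log2 ratio of -0.40, and with that median subtracted its log2 ratio of 0.63 became 1.03, past the 2-fold mark. Fosb (NCBI gene 14282, chromosome 7, 19302696 to 19310118, minus strand, up to 5 exons) was the scarcest of the 10, with 414 counts in shGas6 and 246 in shControl. Its level was 8.0 CPM in shGas6 and 4.84 CPM in shControl, a fold of 1.65 (1.41 to 1.95), and its interval was the widest relative to the fold.

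Egr1, Ier2 and Ier3 lie outside the AP-1 families but are induced by the same signals. Egr1, a zinc-finger transcription factor that ERK signalling induces strongly, had 15854 counts in shGas6 and 3688 in shControl (NCBI gene 13653, chromosome 18, 34861207 to 34864956, plus strand, up to 3 exons). Egr1 was at 307 CPM in shGas6 and 72.5 CPM in shControl, a fold of 4.23 (4.08 to 4.38), second to Jun. Ier2, a small nuclear protein of a gene of 1 exon (NCBI gene 15936, chromosome 8, 84661331 to 84662852, minus strand), had 5941 counts in shGas6 and 2152 in shControl. At 115 CPM in shGas6 and 42.3 CPM in shControl, it was 2.71-fold higher (2.58 to 2.85). Ier3, also called IEX-1, a stress-induced regulator of cell survival (NCBI gene 15937, chromosome 17, 35821713 to 35822911, plus strand, 2 exons), had 8153 counts in shGas6 and 4961 in shControl. It was at 158 CPM in shGas6 and 97.6 CPM in shControl, 1.62-fold higher (1.56 to 1.67).

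**Figure D2:**
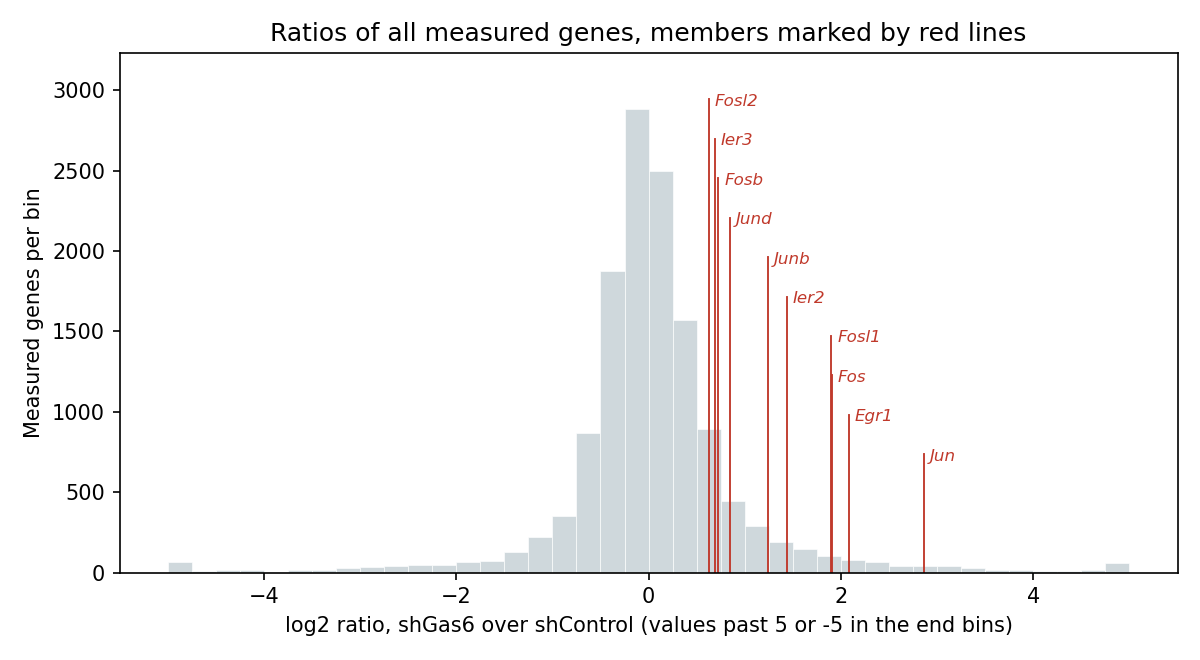
Histogram of the log2 ratio, shGas6 over shControl, of 13367 measured genes in bins of 0.25 (1 library per group), with a red line for each of the 10 immediate early genes; the height of a red line has no meaning. All 10 lie to the right of 0, between 0.63 for Fosl2 and 2.86 for Jun.

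Subtracting the median of the 50 surrounding genes left the same 4 members highest, but it moved several ratios beyond their counting intervals. The members' median log2 ratio went from 1.34 to 1.60, and that of Fosl2 from 0.63 to 1.03. Junb, Jund and Ier2 lie on chromosome 8, where Gas6 also lies, and the 50 measured genes around each had a median log2 ratio of -0.24 for Junb, -0.14 for Jund and -0.29 for Ier2. The other members' surroundings, Fosl2 apart, lay between 0.04 (Ier3 and Fos) and 0.18 (Egr1). The log2 ratios with the surrounding median subtracted were 2.71 for Jun, 1.90 for Egr1, 1.87 for Fos and 1.76 for Fosl1, so these 4 remained the highest under that correction too, with Ier2 next at 1.73.

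Levels of different genes were compared on the deposited TPM scale, which is per transcript length. Jun stood 6th of the 10 in shGas6, at 104 TPM, and 9th in shControl, at 13.9 TPM. Junb came first in both libraries, at 743 TPM in shGas6 and 304 TPM in shControl, and Ier3 second, at 297 and 178 TPM in the same order. Fosb came last in both, at 4.39 TPM in shGas6 and 2.57 TPM in shControl. Egr1 stood 4th in shGas6, at 205 TPM, and 6th in shControl, at 46.8 TPM. Fosl2 stood 7th in shGas6, at 96.2 TPM, and 4th in shControl, at 60.1 TPM. The counting intervals of neighbours in these orders did not overlap, except for Jund (208 TPM) and Egr1 (205 TPM) in shGas6, which could not be ordered. Counting error is the only error known here, so closely spaced neighbours such as Jun and Fosl2 in shGas6 may not be ordered reproducibly.

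In summed TPM both AP-1 families were higher in shGas6 by nearly the same factor, while their make-up differed. The 4 Fos genes summed to 255 TPM in shGas6 and 102 TPM in shControl, a ratio of 2.49. The 3 Jun genes summed to 1055 TPM in shGas6 and 429 TPM in shControl, a ratio of 2.46. Fos family transcripts were therefore 19.5% of the joint sum in shGas6 and 19.3% in shControl. The closeness of the 2 factors depends on this scale. In summed CPM, which is not per length, the Fos genes were at 429 in shGas6 and 221 in shControl. The Jun genes were at 1120 and 466 CPM in the same order, a larger factor than that of the Fos genes.

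Jun made up 9.89% of the Jun family sum in shGas6 and 3.23% in shControl, whereas Junb held 70.4% and 70.8% in the same order. Jund was 19.7% of that sum in shGas6 and 26.0% in shControl. In the Fos family Fosl2 made up 37.7% in shGas6 and 58.7% in shControl, Fos 34.9% and 22.3%, and Fosl1 25.6% and 16.5%, each in the same order. Fosb was 1.72% of the Fos family sum in shGas6 and 2.51% in shControl. These shares describe transcripts, and protein levels and dimers were not measured.

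**Figure D3:**
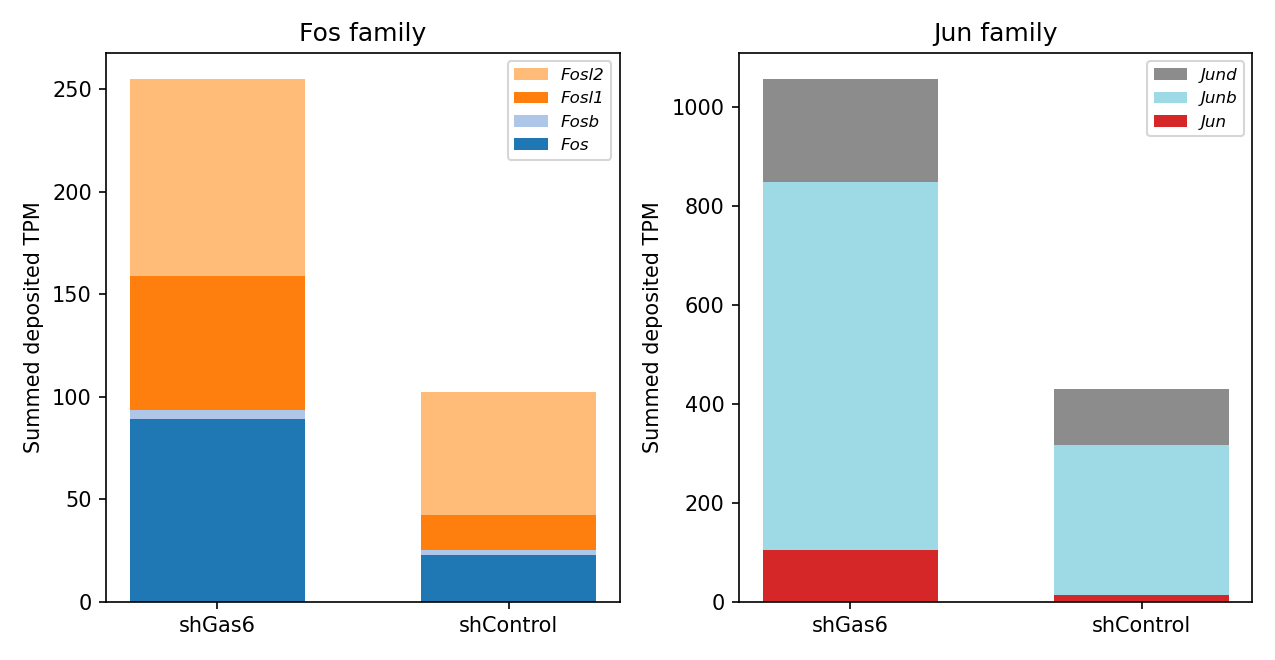
Stacked bars of the deposited TPM of the Fos genes (left) and the Jun genes (right), with the shGas6 library to the left of the shControl library in each panel. The Fos sum is 255 TPM in shGas6 and 102 TPM in shControl, and the Jun sum is 1055 and 429 TPM in the same order, with a larger share of Jun and a smaller share of Fosl2 in shGas6.

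A list of 40 further immediate early genes, chosen with earlier results of these libraries known, was mostly higher as well. The 2-fold mark was passed upwards by 19 of its 34 measured genes, against 8.66% of all measured genes. None passed it downwards, against 6.21% of all measured genes. A ratio above 0 was found for 27 of the 34, and the list's median log2 ratio was 1.05. Atf3, a stress-induced bZIP factor that pairs with Jun proteins, was at 363 CPM in shGas6 and 38.5 CPM in shControl, 9.42-fold higher (8.99 to 9.88). Dusp1, a phosphatase that switches off MAP kinases, was at 181 CPM in shGas6 and 35.9 CPM in shControl, 5.04-fold higher (4.79 to 5.30). The nuclear receptor Nr4a1 was at 23.1 CPM in shGas6 and 5.13 CPM in shControl, 4.50-fold higher (3.93 to 5.17).

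Egr2, a relative of Egr1, had only 75 counts in shGas6 and 10 in shControl, a ratio of 7.37 with a wide interval (3.80 to 16.0). Plk3, a stress-responsive kinase, was 4.47-fold higher (4.08 to 4.91) and the small MAF protein gene Maff 4.01-fold higher (3.75 to 4.28). The list was not uniform. Zfp36l1, an mRNA-decay factor, was at 52.5 CPM in shGas6 and 73.9 CPM in shControl, 1.41-fold lower (1.34 to 1.48), and Nr4a2 was 1.31-fold lower (1.17 to 1.47). Btg2, an antiproliferative gene, was at 29.9 CPM in shGas6 and 30.3 CPM in shControl, and the counting interval of its fold included 1 (0.92 to 1.06). These last 3 genes were chosen after their values were seen.

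**Figure D4:**
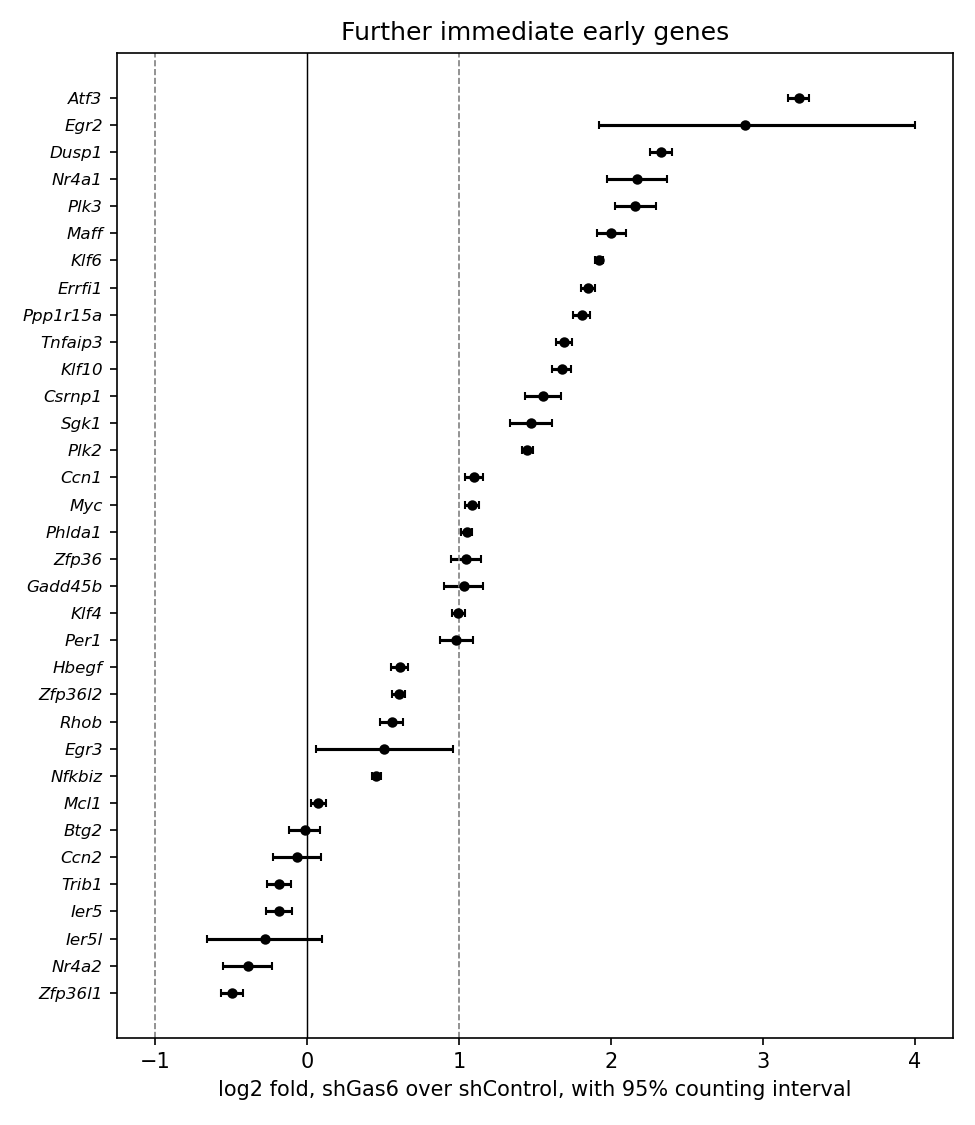
The log2 fold, shGas6 over shControl, of the 34 measured genes of the list of further immediate early genes, with 95% counting intervals (1 library per group); dashed lines mark 2-fold in each direction. Atf3 is at the top with 9.42-fold, 19 genes lie beyond the right dashed line and none beyond the left.

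Among genes that act before AP-1 and EGR1, none of the measured MAP kinase cascade and serum response factor genes listed passed 2-fold at the transcript level. Restraining genes of the same pathway, counted in other lists, did pass it, such as Dusp1 (5.04-fold higher) and Spry4 (4.89-fold higher). Of 21 measured genes of the MAP kinase cascade none was 2-fold higher or lower, and the median log2 ratio was 0.05. Mapk3, which encodes ERK1, was at 302 CPM in shGas6 and 452 CPM in shControl, 1.5-fold lower (1.47 to 1.53). Mapkapk2 was 1.49-fold lower (1.44 to 1.55), Map2k6 1.39-fold lower (1.31 to 1.48) and Araf 1.31-fold lower (1.26 to 1.37). The kinase gene Braf was 1.42-fold higher (1.32 to 1.52), and Map2k1, which encodes the ERK activator MEK1, 1.33-fold higher (1.29 to 1.37). Of the 21 genes, 13 had a ratio above 0. Likewise none of 8 serum response and ternary complex factor genes passed 2-fold. Over all measured genes 8.66% passed 2-fold upwards and 6.21% downwards, so a list of 8 with none says little. Srf, the serum response factor gene, was at 45.7 CPM in shGas6 and 35.5 CPM in shControl, and the ternary complex factor gene Elk3 at 74.5 and 115 CPM in the same order. Kinase activity was not measured, and its part in these results was not tested.

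Feedback and turnover genes gave a mixed picture. Of all measured genes 8.66% passed 2-fold upwards and 6.21% downwards. Of 10 genes for EGR repressors and ERK feedback, 3 passed 2-fold upwards and none downwards. They were Spry4 (4.89-fold, 4.33 to 5.54), Dusp4 (2.44-fold, 2.22 to 2.68) and Dusp5 (2.25-fold, 2.02 to 2.5), which all restrain ERK signalling. Nab1 and Nab2, corepressors that bind EGR1, had log2 ratios of -0.11 and 0.13, with Nab2 at 21.2 CPM in shGas6 and 19.3 CPM in shControl.

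Among 8 genes for AP-1 turnover and cofactors none passed 2-fold. Cop1, a ubiquitin ligase that marks Jun protein for degradation, came nearest, at 74.2 CPM in shGas6 and 139 CPM in shControl, 1.87-fold lower (1.80 to 1.95). Of 8 measured bZIP factors related to AP-1, 1 was at least 2-fold higher, Jdp2, a repressor that dimerises with Jun proteins (3.19-fold, 3.01 to 3.39). Another 1 was at least 2-fold lower. With 8.66% of all measured genes higher and 6.21% lower, counts this small in lists of 8 say little.

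Genes often named as AP-1 targets differed in both directions. Of all measured genes 8.66% passed 2-fold upwards and 6.21% downwards. Among the 17 measured genes of this list, 5 passed 2-fold upwards and 3 downwards. Their median log2 ratio was 0.38, and 11 ratios lay above 0. Sprr1a, a cornified envelope protein of stratified epithelia, was at 744 CPM in shGas6 and 161 CPM in shControl, 4.63-fold higher (4.53 to 4.75). Vegfa, an angiogenic factor, was at 389 CPM in shGas6 and 82.4 CPM in shControl. F3, the initiator of coagulation, was 3.32-fold higher (3.22 to 3.42), and the protease gene Plau 2.78-fold higher (2.39 to 3.24). Plau, and Spp1 among the lower genes, were chosen after their values were seen.

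On the lower side stood Mmp13, a collagenase gene with a well-known AP-1 site, at 53.9 CPM in shGas6 and 380.1 CPM in shControl, 7.06-fold lower (6.78 to 7.35). Mmp3, which encodes stromelysin, had 8 counts in shGas6 and 77 in shControl, 9.79-fold lower (4.73 to 23.5). Spp1, which encodes osteopontin, was at 815 CPM in shGas6 and 2589 CPM in shControl, 3.18-fold lower (3.14 to 3.21). Higher AP-1 transcripts in shGas6 were thus accompanied by lower transcripts of these 3 genes.

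**Figure D5:**
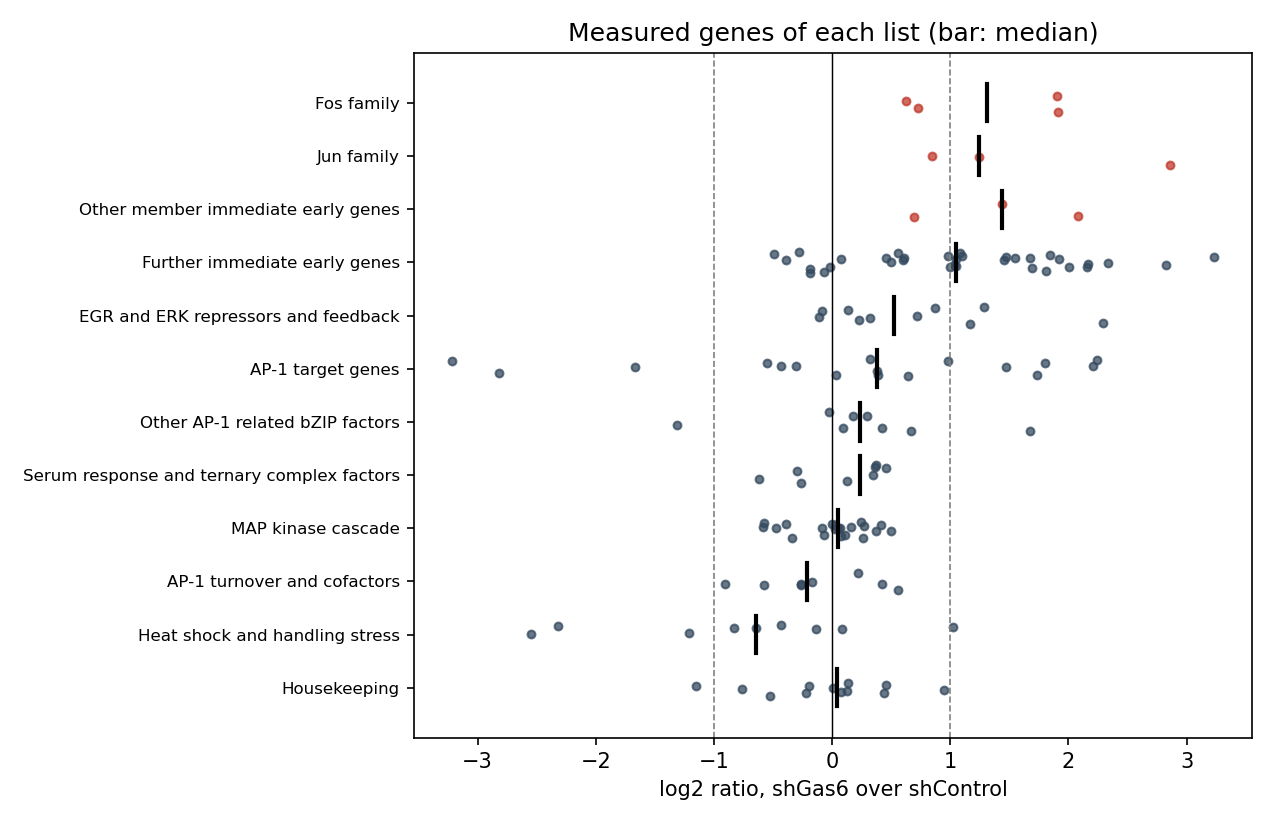
The log2 ratio, shGas6 over shControl, of each measured gene in 12 lists (1 library per group), with the 10 immediate early genes in red, a black bar at each list's median, and dashed lines at 2-fold; vertical scatter within a list only separates points. The 10 genes and the further immediate early genes lie mostly to the right of 0, the MAP kinase cascade centres near 0, and the AP-1 targets spread in both directions.

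Immediate early genes respond to handling, so the heat shock list and other signs of sample state are given beside them. Of 9 heat shock genes, 1 was at least 2-fold higher in shGas6, Hspb1, at 323 CPM in shGas6 and 159 CPM in shControl. Another 3 were at least 2-fold lower, where 8.66% of all measured genes were higher by that mark and 6.21% lower. Hspa8 was at 994 CPM in shGas6 and 2294 CPM in shControl, and the near-identical genes Hspa1a and Hspa1b, which may share reads, were 5.90-fold (4.36 to 8.13) and 5.01-fold lower (4.31 to 5.85).

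The list's median log2 ratio was -0.64. Mitochondrially encoded genes took 1.47% of the counts in shGas6 and 1.59% in shControl. The median log2 ratio of 12 housekeeping genes was 0.04, and 1 of them was at least 2-fold lower. The part of culture state in the result was not tested.

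Features that the choice of members did not use were looked up in the GENCODE M21 annotation (build GRCm38). Jun, Junb, Jund and Ier2 each have 1 exon, and no member has more than 5. Exons were counted for the members only, so whether these numbers are unusual among measured genes is not known. In the longest annotated 3′ untranslated region of each gene, the pentamer ATTTA, the core of AU-rich elements that speed mRNA decay, occurred in 9 of 10 members, and in 69.7% of 11688 measured genes. Ier3 had 5 copies in 616 bases and Fos 4 in 818 bases, whereas Ier2 had none in 758 bases. The longer element TTATTTATT was found in 2 members, Fos and Fosl2, and in 8.13% of measured genes. These matches were set beside the ratios as a description only.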

How the data were processed

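Poly(A) RNA of 1 shGas6 and 1 shControl culture was sequenced with a stranded kit, per the labels' protocols. Trimmomatic and build GRCm38 (mm10) are named in the submitters' processing notes; no aligner, counter, strand setting or annotation release is named in the sources used here. The authors deposited raw read counts per gene, which were the basis of the folds. The deposited TPM values, scaled by the authors to length and library total, gave levels between genes, and the deposited FPKM values an alternative. The 2 libraries were matched to columns by name.

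TMM factors from edgeR 4.0.16 (R 4.3.3) set the library sizes. Folds are of scaled counts, and log2 ratios use a pseudocount of 0.5. Exact 95% intervals (scipy 1.17.1) come from the binomial split of each gene's counts; PCR copies are not independent, so these cover counting error only. Median depth of measured genes was 1577 counts in shGas6 and 1506 in shControl. The members and lists were chosen with earlier results of these data known. Named were all 10 members, Gas6, and from each list up to 6 genes with the largest absolute ratio, or any of lists with 10 or fewer measured; exceptions are marked, and some genes of the lists are counted but not reported by name here. Positions are from RefSeq GRCm38.p6 (45679 of 45777 genes matched). Tested on simulated Poisson counts of 12933 genes for this comparison, 100% of 100 genes changed 2.5-fold passed the 2-fold mark, and 0.008% of unchanged genes. The simulation left out spread between cultures, so 0.008% covers counting error only and is not a rate of false calls in these libraries. DESeq2 1.42.0 gave only size factors as an alternative.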

Additional observations from a re-analysis of the deposited data

How the results depend on the processing

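All 10 members kept a ratio above 0 under each of 7 alternatives: total count, DESeq2 size factors, upper quartile, a pseudocount of 5, deposited TPM or FPKM with a pseudocount of 0.1, and the median of 50 surrounding genes subtracted. Their log2 ratios ranged from 0.59 (Fosl2) to 2.90 (Jun). Of 70 such values, 57 lay within the counting interval of the gene's ratio and 13 outside it, and none reversed. The members' median of 1.34 became 1.60 with surrounding genes subtracted. The number of members past 2-fold (6) was 10 at a fold of 1.5 and 2 at a fold of 4, by construction, and 7 with surrounding genes subtracted. The numbers of all genes at least 2-fold higher and lower (1158 and 830) were 4211 and 3520 with a filter of 1 count, 730 and 466 with a filter of 5 CPM, 2147 and 1681 past a fold of 1.5, and 424 and 345 past a fold of 4, by construction. The Fos family share of both families (19.5% in shGas6 and 19.3% in shControl by TPM) was 27.7% in shGas6 and 32.2% in shControl by summed counts, which are not per length. With 1 library per group, no library could be left out. Among the members, depth limits Fosb most.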
